A study of Mus musculus with 12 samples.

Results

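Genes of the cornified envelope and of its cross-linking were followed in cultured primary mouse keratinocytes. The set held 10 genes, namely Lor, Ivl, Flg2, Hrnr, Rptn, Kprp, Tgm1, Tgm3, Tgm5 and Casp14, of 19938 genes that had a transcript cluster with a single gene symbol. They were picked by name as envelope precursors, transglutaminases and a caspase of cornification. Each had 1 such cluster on the array, and all 10 were among the 15868 genes that passed the filter on low values.

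The cornified envelope is the insoluble protein shell that replaces the plasma membrane when a keratinocyte dies at the skin surface. Calcium-dependent transglutaminases join glutamine to lysine residues of precursors such as involucrin, loricrin and the S100 fused-type proteins. Involucrin and periplakin line the membrane first, and loricrin, the small proline-rich proteins and the late cornified envelope proteins are added afterwards. Many of the precursor genes lie next to one another in the epidermal differentiation complex.

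RNA of FVB/N keratinocytes had been measured on Affymetrix whole-transcript mouse arrays, with 3 arrays in each of 4 groups. MT-HGF + AG1478 cells carried a hepatocyte growth factor (HGF, the ligand of MET) transgene, were mock transduced, and were treated for 24 h with AG1478, an inhibitor of the EGFR kinase, in medium with 8% serum. MT-HGF cells carried the same transgene without the inhibitor, RAS cells were wild-type cells transduced with the v-rasHa oncogene for 3 days, and WT cells were wild-type controls. The transgene of this line is known to be driven by a metallothionein promoter, which is not restricted to keratinocytes. The treated arrays came with their own growth and extraction notes, and no vehicle-treated array of that experiment was used here. The inhibitor, the handling, the serum and the mock transduction therefore cannot be told apart. The oncogene and its transduction cannot be told apart either, and the labels attach the same note of a 3-day RAS transduction to the RAS, MT-HGF and WT arrays without saying what the MT-HGF and WT controls received in that step. The labels call the RAS, MT-HGF and WT arrays biological replicates but name no separate animals or cultures, and a p-value here reflects array-to-array spread, which may be technical.

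Values are deposited log2 levels, and a difference of 1 log2 unit is a change by a factor of 2. Array medians lay between 6.77 and 6.84. A gene was taken as above background where it exceeded the 95th percentile, on the same array, of 155 chemosensory receptor genes. These were the receptor genes that had passed the filter on low values, and the level lay between 6.81 and 7.14. Without that filter the level was lower, at 6.09 to 6.34. Hgf averaged 10.74 ± 0.073 in MT-HGF + AG1478 cells, 10.68 ± 0.079 in MT-HGF cells, 5.16 ± 0.24 in RAS cells and 4.91 ± 0.060 in WT cells (SD, n = 3 each), and was above background on the transgenic arrays alone. All 10 keratinocyte markers were above background on every array. The mean level of 18 measured fibroblast markers lay at 8.31 to 8.39 in MT-HGF + AG1478, 8.32 to 8.39 in MT-HGF, 8.01 to 8.03 in RAS and 8.54 to 8.56 in WT cells. Of these 18 markers 5 were called higher and 12 lower in MT-HGF, and 1 higher and 11 lower in RAS, than in WT cells. Of 13 melanocyte markers 10 were called lower in MT-HGF than in WT cells. Between MT-HGF + AG1478 and MT-HGF cells 0 of the 13 were called in either direction. Over all genes 17.1% were called higher and 23.9% lower in MT-HGF than in WT cells. The shares were 12.6% and 19.9% in RAS over WT, and 6.57% and 9.91% in MT-HGF + AG1478 over MT-HGF cells. The part of fibroblasts and melanocytes in the results was not tested. In such bulk RNA, fewer cells expressing a gene and less RNA per cell cannot be told apart.

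The 300 bases around the start of 4 genes of the complex are shown, because they were called in different directions with AG1478. Ivl was called lower there, and Hrnr, Rptn and Lor higher, Lor with overlapping arrays, as described further on. They run from 250 bases before to 50 bases after the RefSeq start on the GRCm38.p6 build, 5′ to 3′ along the gene. Capitals mark matches to TGANTCA, the letters bound by AP-1 factors, searched on both strands.
Ivl promoter, chr3:92573686-92573985, minus strand: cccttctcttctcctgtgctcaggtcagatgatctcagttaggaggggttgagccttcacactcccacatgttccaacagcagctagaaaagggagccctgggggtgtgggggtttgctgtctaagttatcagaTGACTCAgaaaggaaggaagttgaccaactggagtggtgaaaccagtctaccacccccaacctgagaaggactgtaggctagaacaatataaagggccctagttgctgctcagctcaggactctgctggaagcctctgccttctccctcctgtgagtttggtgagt
Lor promoter, chr3:92083093-92083392, minus strand: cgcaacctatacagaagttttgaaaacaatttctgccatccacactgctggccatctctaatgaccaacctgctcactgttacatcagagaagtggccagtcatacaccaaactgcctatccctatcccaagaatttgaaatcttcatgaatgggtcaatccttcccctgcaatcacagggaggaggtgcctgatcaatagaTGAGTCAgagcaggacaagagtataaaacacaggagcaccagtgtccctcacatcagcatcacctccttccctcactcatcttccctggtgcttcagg
Rptn promoter, chr3:93393449-93393748, plus strand: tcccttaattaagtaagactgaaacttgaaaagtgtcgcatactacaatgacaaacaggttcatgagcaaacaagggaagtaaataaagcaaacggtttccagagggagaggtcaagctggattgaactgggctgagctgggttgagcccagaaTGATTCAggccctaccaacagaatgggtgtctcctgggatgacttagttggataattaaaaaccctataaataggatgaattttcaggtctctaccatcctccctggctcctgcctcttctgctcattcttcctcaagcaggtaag
Hrnr promoter, chr3:93319499-93319798, plus strand: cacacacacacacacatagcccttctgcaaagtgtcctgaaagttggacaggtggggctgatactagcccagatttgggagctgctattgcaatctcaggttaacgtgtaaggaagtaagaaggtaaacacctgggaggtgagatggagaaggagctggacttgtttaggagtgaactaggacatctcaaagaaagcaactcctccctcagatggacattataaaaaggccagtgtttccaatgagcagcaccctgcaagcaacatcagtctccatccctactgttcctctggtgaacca
The AP-1 letters stood at position -116 of Ivl, -48 of Lor and -96 of Rptn, counted from the start, and were not in this window of Hrnr. Promoters of 9 of the 10 genes were matched, all but Kprp. The AP-1 letters were in 4 of the 9, the fourth being Flg2 at position -69, and in 7.81% of 32851 promoters of the same length. The other letters searched on both strands were CACCC, bound by Klf factors, in 7 of the 9 and in 57.5% of all promoters, AACCNGTT, bound by Grainyhead-like factors, in Rptn and Tgm5 and in 2.09% of all promoters, and GCCNNNGGC, bound by AP-2, in 0 of the 9 and in 16.6% of all promoters. No match overlapped one of another motif. A match describes letters and shows no binding.

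Lor encodes loricrin, the most abundant envelope protein of the epidermis. Its log2 level was 10.52, 10.90 and 10.33 in MT-HGF + AG1478 cells, 9.77, 10.20 and 10.43 in MT-HGF cells, 10.38, 10.63 and 10.58 in RAS cells, and 8.51, 8.64 and 8.74 in WT cells. WT arrays were the lowest without overlap, while the ranges of the other 3 groups overlapped. The difference from WT was 1.96 ± 0.15 log2 units in MT-HGF + AG1478 (SE, adjusted p = 1.51e-08, a factor of 3.88), 1.50 ± 0.15 in MT-HGF (adjusted p = 3.43e-07, a factor of 2.84) and 1.90 ± 0.15 in RAS cells (adjusted p = 2.63e-08, a factor of 3.73). Between MT-HGF + AG1478 and MT-HGF cells Lor differed by 0.45 ± 0.15 (adjusted p = 0.0469) with overlapping arrays. That call was lost in 7 of 15 alternative settings, and the value over all 15 was 0.27 to 0.60. It was lost without replicate 1 of MT-HGF (0.27), replicate 2 of MT-HGF (0.48), replicate 1 of MT-HGF + AG1478 (0.48) or replicate 2 of MT-HGF + AG1478 (0.29).

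Ivl encodes involucrin, an early scaffold of the envelope. Its level was 11.61, 11.60 and 11.85 in MT-HGF + AG1478 cells, 12.31, 12.33 and 12.35 in MT-HGF cells, 12.39, 12.51 and 12.46 in RAS cells, and 11.66, 11.53 and 11.57 in WT cells. MT-HGF and RAS arrays were high, and the treated arrays overlapped those of WT. Ivl rose by 0.74 ± 0.074 log2 units in MT-HGF over WT cells (adjusted p = 3.88e-07) and by 0.87 ± 0.074 in RAS over WT cells (adjusted p = 8.05e-08). It fell by 0.64 ± 0.074 in MT-HGF + AG1478 relative to MT-HGF cells (adjusted p = 1.09e-05). The treated cells then differed from WT by 0.10 log2 units, with a 95% interval of -0.06 to 0.26 (adjusted p = 0.297). Ivl was the 1 gene of the set called lower with AG1478.

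Hrnr and Rptn encode hornerin and repetin, S100 fused-type proteins with calcium-binding domains followed by long repeats. Hrnr stood at 11.18, 11.44 and 11.32 in MT-HGF + AG1478 cells, 10.15, 10.46 and 10.62 in MT-HGF cells, 10.97, 11.09 and 11.12 in RAS cells, and 10.12, 10.10 and 10.13 in WT cells. The groups kept apart on every array, though the lowest MT-HGF array lay just above the highest WT array. Hrnr rose by 0.90 ± 0.099 log2 units with AG1478 over MT-HGF (adjusted p = 6.77e-06) and by 1.20 ± 0.099 over WT (adjusted p = 4.93e-08). The rise of 0.95 ± 0.099 in RAS over WT cells was called as well (adjusted p = 1.1e-06), and MT-HGF lay below RAS cells, at -0.65 ± 0.099 (adjusted p = 0.000134). The difference of 0.29 ± 0.099 between MT-HGF and WT cells passed at an adjusted p of 0.0256, but 5 of the 6 settings that left out an array lost it. It was lost without any 1 of the WT arrays (0.29 to 0.30), without replicate 2 of MT-HGF (0.27) and without replicate 3 of MT-HGF (0.19), and kept without replicate 1 of MT-HGF (0.42). MT-HGF + AG1478 exceeded RAS cells by 0.25 (adjusted p = 0.0587), which did not pass, though it did in 5 of 15 settings, with replicate 1 of MT-HGF + AG1478 left out (adjusted p = 0.0338) among them.

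Rptn stood at 9.11, 9.10 and 9.34 in MT-HGF + AG1478 cells, 7.73, 8.18 and 8.51 in MT-HGF cells, 8.87, 9.39 and 9.21 in RAS cells, and 7.08, 7.03 and 7.21 in WT cells. WT values were just above the background of their own arrays, MT-HGF was intermediate, and treated and RAS arrays overlapped. The gene rose by 1.04 ± 0.16 log2 units with AG1478 over MT-HGF (adjusted p = 0.00015), by 1.04 ± 0.16 in MT-HGF over WT (adjusted p = 4e-05) and by 2.05 ± 0.16 in RAS over WT (adjusted p = 1.85e-08). Treated cells lay 2.08 ± 0.16 above WT (adjusted p = 1.32e-08) and 0.02 from RAS cells, with an interval of -0.30 to 0.35. MT-HGF lay below RAS cells, at -1.02 ± 0.16 (adjusted p = 0.00014). By size Rptn ranked 93 of 15868 genes in MT-HGF + AG1478 against MT-HGF, the highest rank of the set in that comparison.

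Flg2 encodes filaggrin-2, a further S100 fused-type protein. Its level was 6.40, 6.70 and 6.33 in MT-HGF + AG1478 cells, 6.14, 6.13 and 6.49 in MT-HGF cells, 6.72, 6.90 and 6.95 in RAS cells, and 5.88, 5.99 and 6.02 in WT cells. It exceeded background on 1 of 12 arrays, a RAS array, so no difference is given for it against this background. Counts below are stated for all 10 genes and for the other 9, which were above background on all 12 arrays.

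Kprp encodes the keratinocyte proline-rich protein. Its level was 11.89, 11.82 and 12.06 in MT-HGF + AG1478 cells, 11.72, 11.85 and 11.86 in MT-HGF cells, 12.51, 12.58 and 12.61 in RAS cells, and 10.01, 10.14 and 10.31 in WT cells. RAS arrays were highest and WT arrays lowest without overlap, and the transgenic groups overlapped each other. The differences from WT were 1.77 ± 0.083 log2 units in MT-HGF + AG1478 (adjusted p = 3.99e-11), 1.66 ± 0.083 in MT-HGF (adjusted p = 7.35e-11) and 2.41 ± 0.083 in RAS cells (adjusted p = 8.72e-13, a factor of 5.33). In RAS cells no other gene of the set differed more from WT. MT-HGF lay below RAS cells, at -0.76 ± 0.083 (adjusted p = 4.79e-06). MT-HGF + AG1478 differed from MT-HGF cells by 0.11, with an interval of -0.07 to 0.29 (adjusted p = 0.406).

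**Figure D1:**
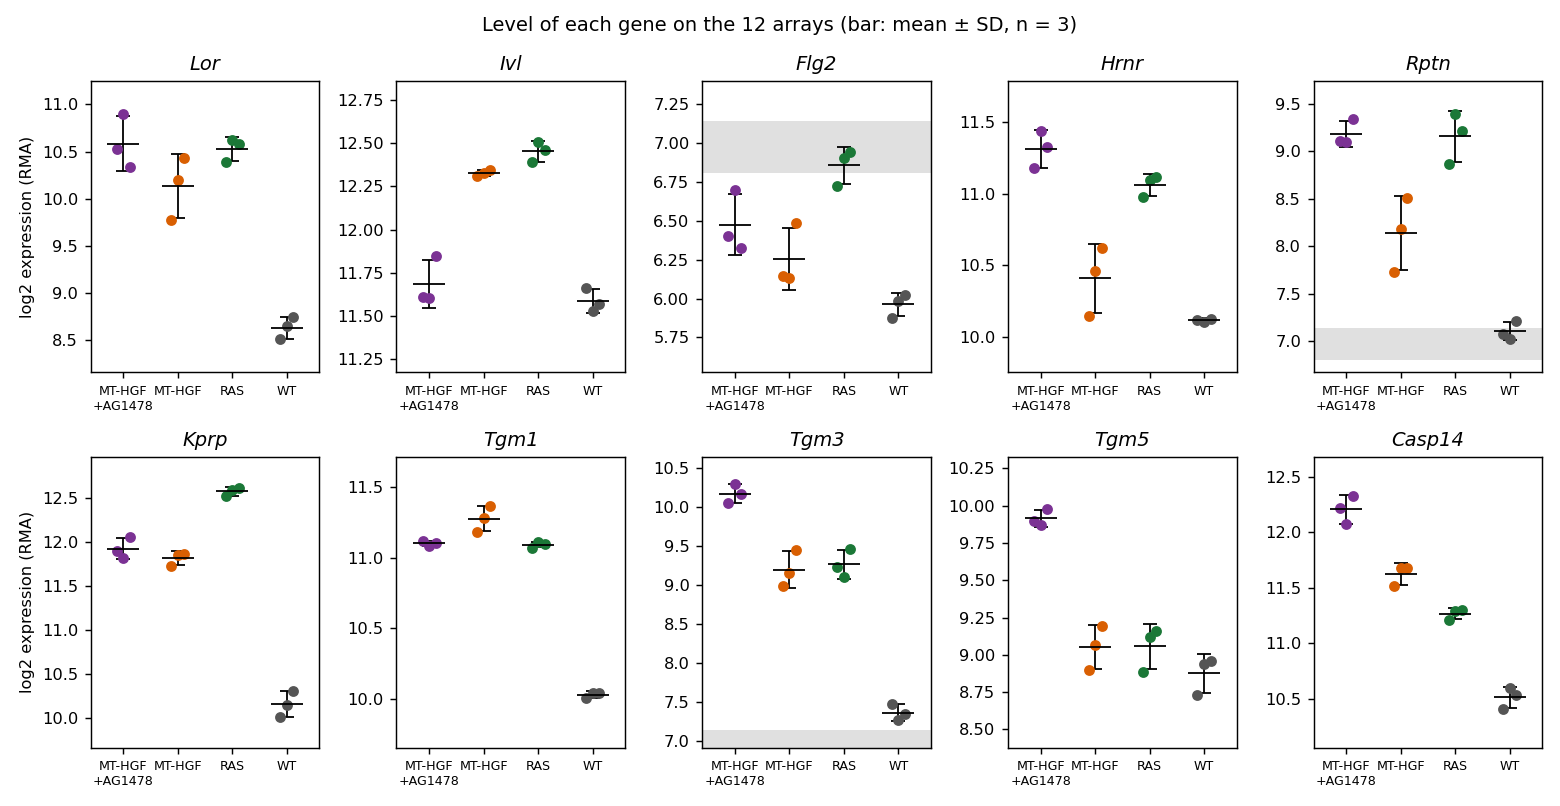
Log2 expression (vertical axis) of the 10 genes on each of the 12 arrays, by group; points are arrays, bars the mean ± SD of 3 arrays, and the grey band is the range of array backgrounds from 6.81 to 7.14. Vertical axes differ between genes and do not start at 0. Ivl and Tgm5 show opposite patterns in the treated cells, and Flg2 lies in or under the band.

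Tgm1 encodes the membrane-anchored keratinocyte transglutaminase, whose loss causes lamellar ichthyosis in humans. It stood at 11.12, 11.08 and 11.10 in MT-HGF + AG1478 cells, 11.18, 11.28 and 11.37 in MT-HGF cells, 11.07, 11.11 and 11.10 in RAS cells, and 10.002, 10.04 and 10.04 in WT cells. All arrays outside WT lay about 1 log2 unit above it, within a narrow range. Tgm1 rose over WT by 1.07 ± 0.062 in MT-HGF + AG1478 (adjusted p = 5.31e-10), by 1.25 ± 0.062 in MT-HGF (adjusted p = 6.85e-11) and by 1.06 ± 0.062 in RAS cells (adjusted p = 6.2e-10). The excess of MT-HGF over RAS cells, 0.18 ± 0.062, passed at an adjusted p of 0.0381 and was lost in 7 of 15 alternative settings. It was lost without any 1 of the RAS arrays (0.17 to 0.19), without replicate 2 of MT-HGF (0.18) or without replicate 3 of MT-HGF (0.14). Between MT-HGF + AG1478 and MT-HGF cells Tgm1 differed by -0.17 ± 0.062 (adjusted p = 0.0677), with arrays that did not overlap, and was called in 4 of 15 settings, with replicate 1 of MT-HGF left out (-0.22, adjusted p = 0.0389) among them.

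Tgm3 encodes the epidermal transglutaminase, a soluble enzyme that is activated by proteolysis. It stood at 10.05, 10.30 and 10.17 in MT-HGF + AG1478 cells, 8.99, 9.15 and 9.45 in MT-HGF cells, 9.23, 9.10 and 9.47 in RAS cells, and 7.47, 7.26 and 7.35 in WT cells. Treated arrays were highest, WT arrays lowest, and MT-HGF and RAS arrays overlapped between them. Tgm3 rose by 0.97 ± 0.11 log2 units with AG1478 over MT-HGF (adjusted p = 1.17e-05), by 1.84 ± 0.11 in MT-HGF over WT (adjusted p = 8.89e-10) and by 1.91 ± 0.11 in RAS over WT (adjusted p = 7.38e-10). Treated cells exceeded WT by 2.81 ± 0.11 (adjusted p = 6.96e-12), a factor of 7.02, which ranked 26 of 15868 genes by size. The WT values were above the background of their own arrays, at 7.06, 6.84 and 6.96, but near it, which makes this factor less certain. MT-HGF differed from RAS cells by -0.07, with an interval of -0.31 to 0.17 (adjusted p = 0.746).

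Tgm5 encodes a further skin transglutaminase, whose loss in humans causes acral peeling skin syndrome. It stood at 9.90, 9.87 and 9.98 in MT-HGF + AG1478 cells, 8.90, 9.07 and 9.19 in MT-HGF cells, 8.88, 9.12 and 9.16 in RAS cells, and 8.73, 8.94 and 8.96 in WT cells. Treated arrays stood apart and the other 3 groups overlapped. Tgm5 rose with AG1478 by 0.86 ± 0.091 log2 units over MT-HGF (adjusted p = 4.91e-06) and by 1.04 ± 0.091 over WT (adjusted p = 1.04e-07). MT-HGF differed from WT by 0.18, with an interval of -0.02 to 0.37 (adjusted p = 0.14), and RAS from WT by 0.18, with an interval of -0.01 to 0.37 (adjusted p = 0.156). It was the 1 gene of the set that passed in neither of those comparisons, though without replicate 1 of MT-HGF (adjusted p = 0.0468) or replicate 1 of RAS (adjusted p = 0.0435) each passed.

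Casp14 encodes a caspase of cornifying epithelia that takes part in the breakdown of filaggrin. It stood at 12.22, 12.08 and 12.33 in MT-HGF + AG1478 cells, 11.52, 11.68 and 11.68 in MT-HGF cells, 11.21, 11.30 and 11.30 in RAS cells, and 10.41, 10.59 and 10.54 in WT cells. The 4 groups did not overlap, and each neighbouring pair in that order passed the test. Casp14 rose by 0.58 ± 0.078 log2 units with AG1478 over MT-HGF (adjusted p = 5.58e-05), by 0.36 ± 0.078 in MT-HGF over RAS (adjusted p = 0.00282) and by 0.75 ± 0.078 in RAS over WT (adjusted p = 9.84e-07). Treated cells exceeded WT by 1.70 ± 0.078 (adjusted p = 3.45e-11) and MT-HGF exceeded WT by 1.11 ± 0.078 (adjusted p = 5.24e-09).

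Within a group, the array values of the set moved together in places. Replicate 1 of MT-HGF was the lowest of its group for 9 of the 10 genes, and replicate 3 was the highest for 10. In RAS cells replicate 1 was the lowest for 9. Replicate 2 of MT-HGF + AG1478 and replicate 1 of WT were each the lowest for 6. Array background was 7.03, 6.87 and 6.85 on the 3 MT-HGF arrays and 7.06, 7.08 and 6.81 on the 3 RAS arrays. The part of these array differences in the results was not tested.

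MT-HGF + AG1478 cells were compared with MT-HGF cells, a comparison in which the inhibitor, the handling, the serum and the mock transduction cannot be told apart. The arrays of MT-HGF cells also enter the comparisons of MT-HGF with RAS and WT, so those values are not independent of these. Of the 10 genes 6 were called higher and 1 lower in MT-HGF + AG1478 than in MT-HGF cells, and the same 6 and 1 held for the 9 genes above background. Of all genes 6.57% were called higher and 9.91% lower. Arrays did not overlap for 7 of the 9 genes, against 34.2% of all genes. The median difference of the 9 genes was 0.58 log2 units, and that of all genes was 0.02. Hrnr, Rptn, Tgm3, Tgm5, Casp14 and Lor rose and Ivl fell, while Kprp and Tgm1 did not pass.

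Transgenic HGF and the v-rasHa oncogene were each set against WT, with the same 3 WT arrays in every comparison with WT. In MT-HGF cells 9 of the 10 genes were called higher and 0 lower, or 8 and 0 of the 9 above background, where 17.1% of all genes were called higher and 23.9% lower. In RAS cells the counts were likewise 9 higher and 0 lower, or 8 and 0 of 9, where 12.6% of all genes were called higher and 19.9% lower. Tgm5 was the gene that did not pass in both. Arrays did not overlap for 8 of the 9 genes in each comparison, against 50.4% of all genes for MT-HGF and 42.9% for RAS. The median of the 9 genes was 1.11 log2 units in MT-HGF and 1.06 in RAS over WT, against -0.03 and -0.02 over all genes.

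MT-HGF + AG1478 cells against WT gave 9 of 10 genes higher and 0 lower, or 8 and 0 of 9, where 16.8% of all genes were called higher and 26.2% lower. Here Ivl was the gene that did not pass, and Tgm5 passed. Arrays of 8 of the 9 genes did not overlap, against 50.5% of all genes, and the median of the 9 genes was 1.70 log2 units, against 0.00 over all genes.

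**Figure D2:**
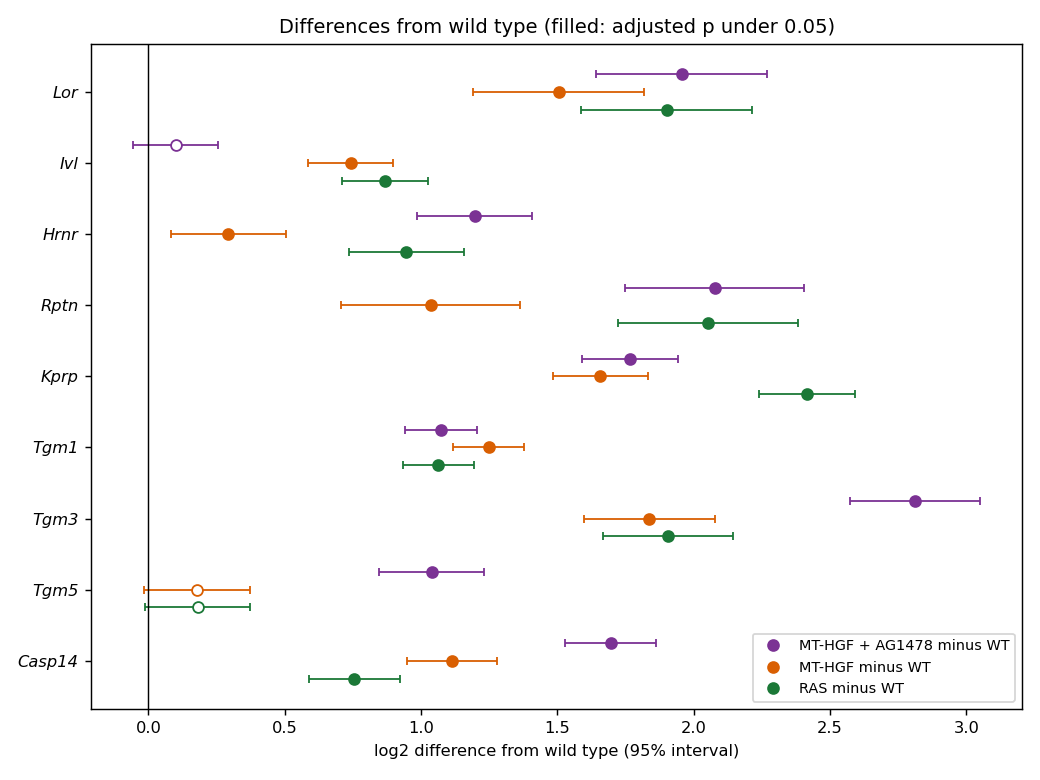
Log2 difference from WT (horizontal axis, bars are 95% intervals) of the 9 genes above background in MT-HGF + AG1478, MT-HGF and RAS cells, filled where the adjusted p was under 0.05. All 3 groups lie to the right of 0 for 7 genes with filled points, while Ivl in treated cells and Tgm5 in MT-HGF and RAS cells are open.

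MT-HGF and RAS cells were also compared directly. Of the 10 genes 2 were called higher and 4 lower in MT-HGF than in RAS cells, or 2 and 3 of the 9 above background, where 13.4% of all genes were called higher and 12.6% lower. Hrnr, Rptn and Kprp were lower in MT-HGF cells, and Casp14 and Tgm1 were higher. Lor (-0.40, interval -0.71 to -0.08, adjusted p = 0.0602, called at 0.0137 without replicate 3 of MT-HGF) and Ivl (-0.13, interval -0.28 to 0.03, adjusted p = 0.25) did not pass. Arrays did not overlap for 6 of the 9 genes, against 39.2% of all genes.

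MT-HGF + AG1478 against RAS cells gave 3 genes higher and 3 lower of 10, or 3 and 2 of 9, where 16.3% of all genes were called higher and 20.4% lower. Tgm3 was higher in treated cells by 0.91 ± 0.11 log2 units (adjusted p = 9.34e-06), Tgm5 by 0.86 ± 0.091 (adjusted p = 1.84e-06) and Casp14 by 0.94 ± 0.078 (adjusted p = 1.08e-07). Ivl was lower, at -0.77 ± 0.074 (adjusted p = 5.55e-07), as was Kprp, at -0.65 ± 0.083 (adjusted p = 1.26e-05). Lor differed by 0.06, with an interval of -0.26 to 0.37, and Tgm1 by 0.01, with an interval of -0.12 to 0.14. Arrays did not overlap for 6 of the 9 genes, against 45.8% of all genes.

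**Figure D3:**
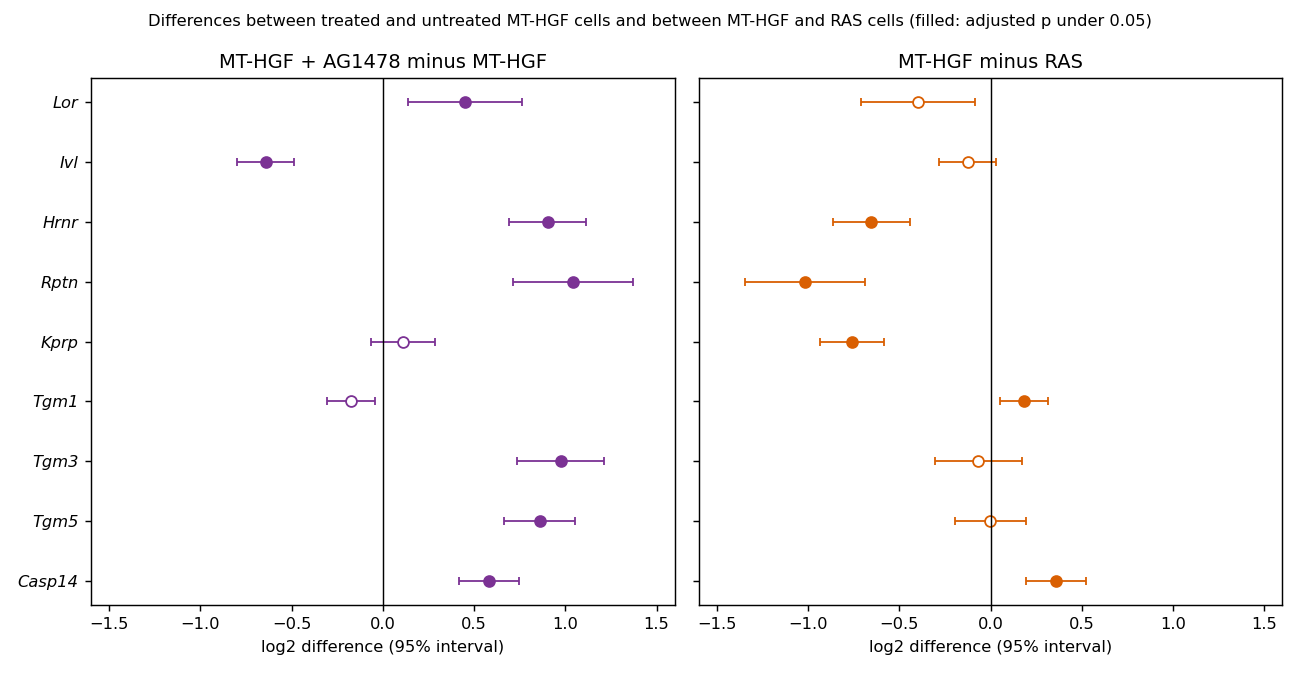
Log2 difference (horizontal axis, bars are 95% intervals) of the 9 genes above background in MT-HGF + AG1478 minus MT-HGF cells (left) and in MT-HGF minus RAS cells (right), filled where the adjusted p was under 0.05. Hrnr and Rptn lie to the right of 0 on the left and to the left of 0 on the right.

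Other genes of the envelope and of its processing were read as lists. Over all genes 6.57% were called higher and 9.91% lower in MT-HGF + AG1478 than in MT-HGF cells. Over WT these shares were 17.1% and 23.9% in MT-HGF and 12.6% and 19.9% in RAS cells. In MT-HGF against RAS cells they were 13.4% and 12.6%. Counts of each list below are read beside these shares. Of 22 measured envelope genes outside the set, 5 were higher and 5 lower in MT-HGF + AG1478 than in MT-HGF cells, and 16 were higher and 1 lower in MT-HGF than in WT cells. In RAS over WT cells 15 were higher and 1 lower. The 4 with the largest MT-HGF difference from WT were Lypd5 (2.46), Crct1 (2.14), Cnfn, which encodes cornifelin (1.81), and Crnn, which encodes cornulin (1.70). With AG1478 all 4 fell, Lypd5 by 0.24 log2 units (adjusted p = 0.03), Crct1 by 0.26 (adjusted p = 0.0192), Cnfn by 0.33 (adjusted p = 0.00157) and Crnn by 1.17 (adjusted p = 2.32e-06). The list's median was 0.08 log2 units with AG1478, against 0.02 over all genes, and 0.53 in MT-HGF over WT, against -0.03.

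Among 11 measured genes of the wider transglutaminase family with its proteases and inhibitors, 2 were higher and 1 lower with AG1478, and 5 were higher and 1 lower in both MT-HGF and RAS cells over WT. Tgm2, Tgm6, Tgm7 and F13a1 were not above background on any array. The largest MT-HGF differences from WT were those of Rarres1 (1.78 log2 units), Ctsl, a cathepsin that activates transglutaminase 3 (1.49), its inhibitor Cst6 (1.26) and Serpinb2, a protease inhibitor that is itself cross-linked (0.73). With AG1478 Cst6 rose by 0.29 (adjusted p = 0.0275) and Serpinb2 fell by 0.30 (adjusted p = 0.00384), whereas Ctsl (-0.15, adjusted p = 0.216) and Rarres1 (0.20, adjusted p = 0.141) did not pass. In RAS cells Rarres1 lay 0.24 above WT (adjusted p = 0.0496) and Ctsl 1.63 above it (adjusted p = 3.85e-11).

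All 17 genes of filaggrin-type processing were measured, and 1 was higher and 5 lower with AG1478, while 13 were higher and 1 lower in MT-HGF and 13 higher and 0 lower in RAS over WT cells. Klk6 and Klk7, kallikrein proteases, rose by 2.58 and 1.79 log2 units in MT-HGF over WT, and Prss8, a membrane-anchored protease, by 1.76. Padi3, a peptidylarginine deiminase, was at least 3.46-fold higher in MT-HGF cells than in WT cells, in which it was not well above background (adjusted p = 1.35e-10). With AG1478 Padi3 fell by 0.52 (adjusted p = 0.00105) and Klk6 by 0.37 (adjusted p = 0.02). The 1 gene that rose with AG1478 was Klk14, by 1.86 (adjusted p = 5.64e-10), named after its values were seen.

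Of 5 measured caspases outside the set 0 were called in either direction with AG1478, and 2 were higher and 1 lower in MT-HGF over WT cells. Casp8 (0.24, adjusted p = 0.0304) and Casp6 (0.23, adjusted p = 0.0407) rose there, and Casp2 fell by 0.39 (adjusted p = 0.00453). Of the 5 cornification nucleases, 2 were higher and 1 lower with AG1478 and all 5 were higher in MT-HGF over WT cells. Dnase2a rose with AG1478 by 0.62 (adjusted p = 0.000164), and Trex2 fell by 0.52 (adjusted p = 3.65e-05).

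The small proline-rich and late cornified envelope families hold near-identical copies, so the split of signal between their members is uncertain. Of 13 measured small proline-rich genes 2 were higher and 8 lower with AG1478, and 12 were higher and 0 lower in both MT-HGF and RAS over WT cells. Sprr2g rose by 4.09 log2 units in MT-HGF over WT and fell by 1.23 with AG1478 (adjusted p = 1.57e-07). Of 19 measured late cornified envelope genes 1 was higher and 9 lower with AG1478, 18 were higher and 0 lower in MT-HGF over WT, and 0 were higher and 18 lower in MT-HGF than in RAS cells. Lce3c, one of them, rose by 2.60 in MT-HGF over WT and fell by 0.98 with AG1478 (adjusted p = 1.05e-07).

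**Figure D4:**
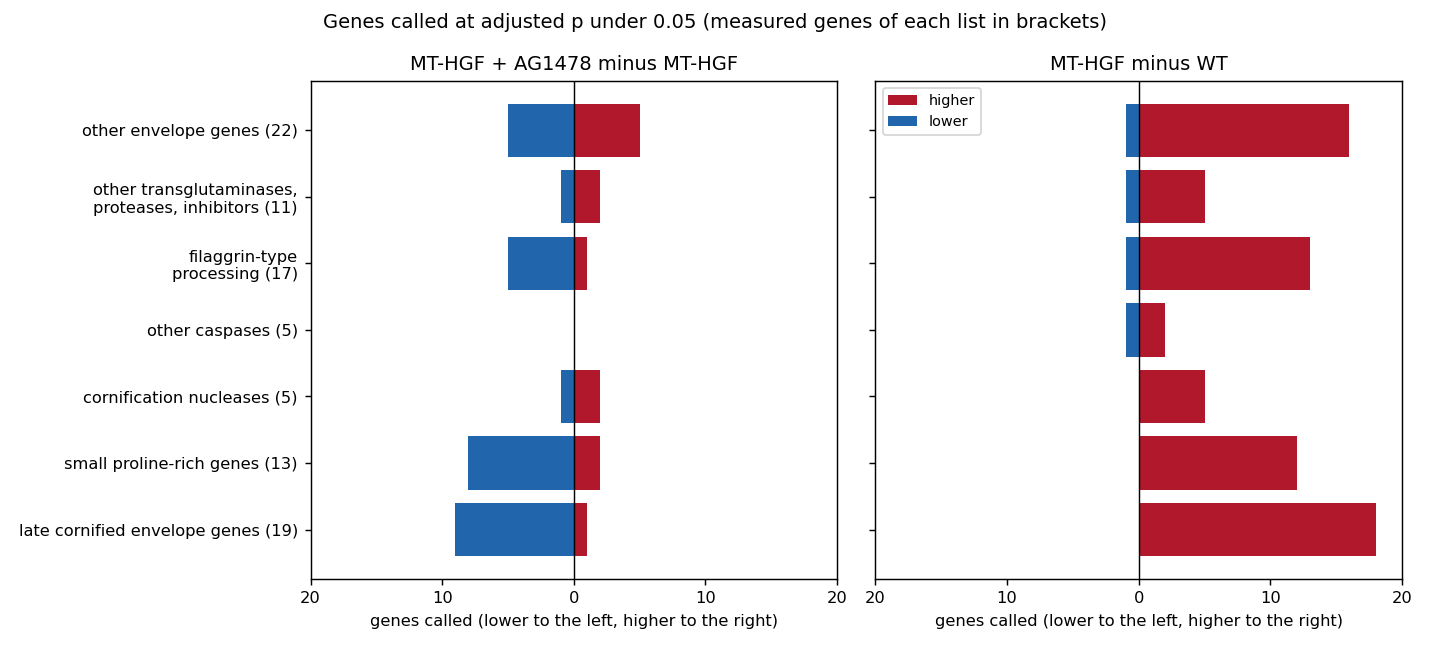
Number of genes called (horizontal axis) lower, to the left of 0, and higher, to the right, at an adjusted p under 0.05 in MT-HGF + AG1478 minus MT-HGF (left) and MT-HGF minus WT (right), for 7 lists of related genes with the number measured in brackets. The late cornified envelope list has 9 lower and 1 higher on the left, and 0 lower and 18 higher on the right.

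Of the set, Lor, Ivl, Kprp, Flg2, Hrnr and Rptn lie on chromosome 3 within the epidermal differentiation complex, taken as the protein-coding genes from S100a9 to S100a11 in RefSeq order. Tgm3 and Tgm5 lie on chromosome 2. Of the 52 other genes of the complex 41 were measured. With AG1478 4 of the 41 were higher and 19 lower than in MT-HGF cells, whereas in MT-HGF over WT 36 were higher and 0 lower. In RAS over WT 37 were higher and 0 lower, and in MT-HGF against RAS cells 6 were higher and 22 lower. Shares of all genes called higher and lower were 6.57% and 9.91% with AG1478, and 17.1% and 23.9% in MT-HGF over WT. They were 12.6% and 19.9% in RAS over WT, and 13.4% and 12.6% in MT-HGF against RAS cells. The median of the 41 was -0.24 log2 units with AG1478, against 0.02 over all genes, and 0.98 in MT-HGF over WT, against -0.03.

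Hrnr and Rptn are immediate neighbours in this order and are followed by Tchh, the gene of trichohyalin, a related S100 fused-type protein. With AG1478 the 3 genes rose by 0.90, 1.04 and 1.54 log2 units over MT-HGF cells, the value of Tchh with an adjusted p of 2.57e-10. Tchh was named after its values were seen. The run ended on that side, as Tchhl1, the next gene and of the same type, differed by 0.11 (adjusted p = 0.284). On the side of Hrnr lie Flg, which was not analysed, and Flg2, at background, so that end of the run is not known. Crnn, a further S100 fused-type gene on the other side of Flg2, fell by 1.17. In MT-HGF over WT the order of sizes was another, with 0.29 for Hrnr, 1.04 for Rptn, -0.13 for Tchh (adjusted p = 0.163) and 1.70 for Crnn (adjusted p = 3.35e-09).

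**Figure D5:**
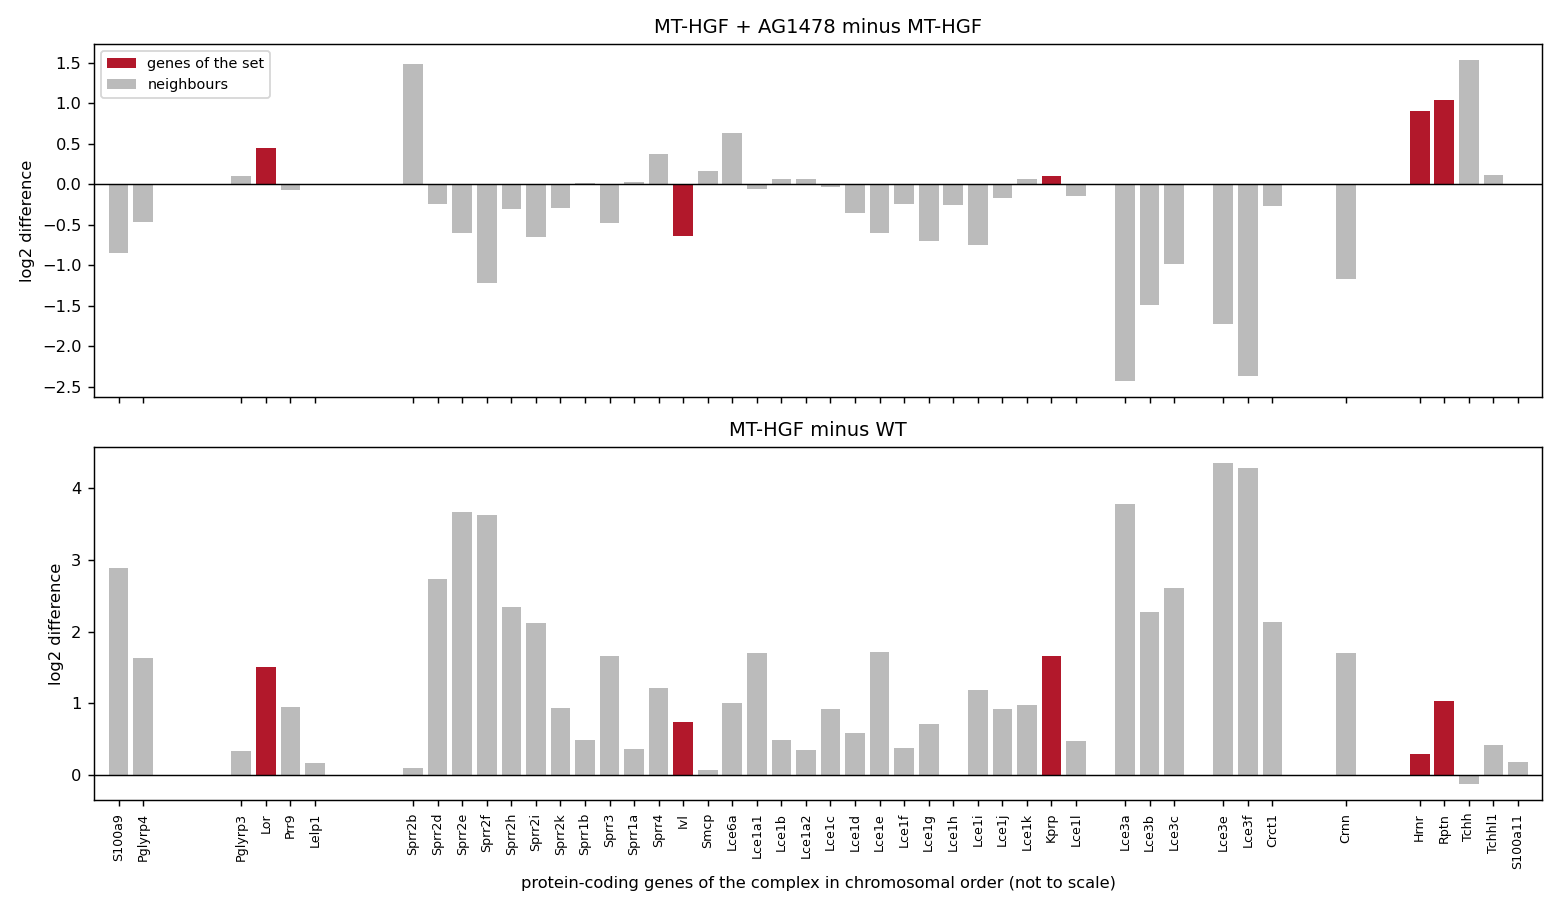
Log2 difference (vertical axis) of the measured genes of the epidermal differentiation complex in chromosomal order (horizontal axis, not to scale), in MT-HGF + AG1478 minus MT-HGF (top) and MT-HGF minus WT (bottom); red bars are genes of the set and grey bars their neighbours. Flg2 is left out as it lay at background, and differences of neighbours near background are understated. Hrnr, Rptn and Tchh rise side by side at the top, and most grey bars there lie under 0.

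Genes with the most similar pattern were found by the root mean square gap between the differences from WT in the 3 other groups, as a description. Those closest to Ivl were Itga6, an integrin subunit of basal keratinocytes (gap 0.046 log2 units), Fosl1, an AP-1 subunit (0.050), and Zdhhc21 (0.061). Closest to Tgm1 were Slc25a48 (0.028), Spink5, a protease inhibitor of the outer epidermis (0.040), and Sbsn, the gene of suprabasin (0.060). Lor was closest to Acpp (0.11), Prss8 (0.17) and Hcar2 (0.20). Hrnr was closest to Scgb2b27 (0.11), Krt4 (0.15) and Tmem86a (0.16). Rptn was closest to Defb4 (0.21), Lce6a (0.25) and Gm94 (0.26), and Kprp to Lce1a1 (0.075), Spns2 (0.20) and Rgs16 (0.26). Tgm3 was closest to Tmem229b (0.18), Lrrn4cl (0.30) and Tmprss11g (0.34). Tgm5 was closest to Slc5a9 (0.048), Serpina9 (0.082), which was above background on 0 arrays, and Mboat2 (0.11). Casp14 was closest to Sox7 (0.14), Epas1 (0.15) and Il22ra1 (0.16). Scgb2b27 was above background on 5 of 12 arrays, Krt4 and Defb4 on 8, and Tmprss11g on 9. Hcar2 was so on 10 arrays, and Lce6a, Slc5a9 and Sox7 on 11. Gaps of these genes are less certain. Flg2 was not placed, as it lay at background. Among the other 9 genes the closest pair was Lor and Rptn, with a gap of 0.29, and the farthest was Ivl and Tgm3, with 1.79.

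Suprabasal keratinocyte markers did not move as 1 group. Of the 4 measured, Krt1, Krt10, Sbsn and Krtdap, 2 were higher and 0 lower in MT-HGF + AG1478 than in MT-HGF cells. Their median there was 1.53 log2 units. In MT-HGF 2 were higher and 2 lower than in WT cells, and in RAS 1 was higher and 2 lower than in WT cells. Over all genes 6.57% were called higher and 9.91% lower in MT-HGF + AG1478 than in MT-HGF cells. Over WT these shares were 17.1% and 23.9% in MT-HGF and 12.6% and 19.9% in RAS cells. Krt1 averaged 12.84 ± 0.080 in MT-HGF + AG1478, 8.07 ± 0.15 in MT-HGF, 10.68 ± 0.37 in RAS and 12.02 ± 0.016 in WT cells (SD, n = 3 each). Krt10 averaged 10.23 ± 0.18 in MT-HGF + AG1478, 7.32 ± 0.088 in MT-HGF, 8.99 ± 0.31 in RAS and 10.63 ± 0.18 in WT cells. Krt1 and Krt10 were the 2 that rose with AG1478 over MT-HGF cells (4.78, adjusted p = 5.2e-13, for Krt1 and 2.92, adjusted p = 3.11e-10, for Krt10). Both were called lower in MT-HGF than in WT cells (Krt1 -3.96, adjusted p = 4.62e-13, and Krt10 -3.31, adjusted p = 4.22e-12) and lower in RAS than in WT cells (Krt1 -1.34, adjusted p = 4.08e-07, and Krt10 -1.64, adjusted p = 3.9e-08). Sbsn and Krtdap were higher in MT-HGF than in WT cells, Sbsn by 1.15 (adjusted p = 1.13e-09) and Krtdap by 0.40 (adjusted p = 0.00343). The part of these markers in the results of the set was not tested.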

How the data were processed

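Total RNA of cultured keratinocytes was measured on 12 arrays. The deposited values are log2 levels made by the authors with RMA, per the submitters' processing notes that name no version. Of the 35511 transcript clusters deposited, 21789 had 1 gene symbol, 1621 had several and 12101 were not listed in the annotation. Clusters above their array's 30th percentile on at least 3 arrays were kept, and a gene was represented by its cluster with the highest mean. A group-means model was fitted with limma 3.58.1 (R 4.3.3, with the data.table package, version 1.17.8) to all 12 arrays, with 8 residual and 8.02 prior degrees of freedom. Two-sided p-values were adjusted by the Benjamini-Hochberg method over 15868 genes in each of 6 comparisons, and called under 0.05. The script was tested on simulated data. Signal over background and the number of arrays limit precision. The members and lists were chosen with earlier results of these data known. Named were every member, its 3 nearest genes, and of each list up to 4 called genes with the largest MT-HGF difference from wild type. Groups came from the sample labels; the series' design text names fewer conditions than the labels. Filter, normalization, model, array and pairing alternatives were tried. Promoters came from RefSeq (GRCm38.p6). Flg was not analysed here.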

Additional observations from a re-analysis of the deposited data

How the results depend on the processing

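Of 810 values of the 9 genes above background under the alternatives, 762 kept their direction and side of the threshold, 17 gained a call and 19 lost one. The other 12 changed sign, in 5 differences near 0 that were called under no setting (Tgm3 and Tgm5 in MT-HGF against RAS, and Lor, Rptn and Tgm1 in MT-HGF + AG1478 against RAS). Genes called higher in MT-HGF than in RAS cells numbered 2, and 1 with arrays centred on their median, 1 with the 2 groups fitted alone and 1 to 2 with an array left out (1 without any RAS array or without replicate 2 or 3 of MT-HGF). Genes called lower in MT-HGF + AG1478 than in MT-HGF cells numbered 1, and 2 with a filter at the 50th percentile, 2 with array weights, 2 with a trended, robust variance prior and 1 to 2 with an array left out (2 without replicate 1 of MT-HGF). With array weights, whose estimation stopped before its tolerance, calls over all genes numbered 8096 against 5158 in RAS over WT and 3925 against 2615 in MT-HGF + AG1478 over MT-HGF. Whether replicate numbers pair the samples was not settled. Deviations of same-numbered arrays correlated at -0.24 to 0.40 between RAS and WT, and at 0.046 to 0.53 between MT-HGF and WT. Between MT-HGF and RAS they correlated at 0.087 to 0.50, and every array correlated best with its own number. Those of MT-HGF + AG1478 arrays correlated at -0.27 to 0.052 with MT-HGF, -0.13 to 0.22 with WT and -0.44 to 0.0078 with RAS. Counts with the replicate block include Flg2. They were 9 of the 10 genes in RAS over WT, 10 in MT-HGF over WT and 7 in MT-HGF against RAS. For MT-HGF + AG1478 they were 7 over MT-HGF, 9 over WT and 7 over RAS. Over all 15868 genes the calls in these 6 comparisons numbered 5262, 6558, 4254, 2708, 6959 and 5931, in the same order. Calls gained with the block were Tgm5 in MT-HGF over WT (adjusted p = 0.0469), Lor in MT-HGF against RAS (0.0289) and Hrnr in MT-HGF + AG1478 over RAS (0.0266). With an array left out, the genes called in MT-HGF over WT numbered 7 to 10 of the 10, Flg2 included. Over all genes they numbered 5526 to 6262. Signal over background limits Flg2: with the lower background of all chemosensory receptor genes (6.09 to 6.34), it was above it on 6 of 12 arrays and higher than in WT cells by at least 0.25 log2 units in MT-HGF + AG1478, 0.024 in MT-HGF and 0.63 in RAS cells.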
